A study of Mus musculus with 20 samples.

Results

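Hmgn1, Brwd1, Chaf1b and Morc3 are chromatin genes of mouse chromosome 16 that Dp3Tyb and Ts1Rhr mice both carry in 3 copies instead of 2. They were chosen by name, with earlier results of these data known, and all 4 were found among the 48795 genes of the table and passed the filter on low values in both strains. Of the 39 protein-coding genes in 3 copies in Dp3Tyb, 31 are in 3 copies in Ts1Rhr as well. The question asked of them is whether output follows copy number in the embryonic heart, where 3 copies against 2 would give a fold of 1.5.

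Whole hearts were taken at embryonic stage E13.5, a stage at which the septa between the chambers are still forming, and their mRNA was sequenced. There were 4 groups of 5 hearts. Dp3Tyb embryos carry the allele Dp(16Mir802-Zbtb21)3TybEmcf and Ts1Rhr embryos the shorter allele Dp(16Cbr1-Fam3b)1Rhr, in every cell from conception. Each strain has its own wild-type (WT) littermates, and all were on a C57BL/6J background. Both strains model Down syndrome, in which heart defects are common. The study describes such defects in Dp3Tyb and not in Ts1Rhr. Heart defects are nevertheless written in the labels for Ts1Rhr replicates 1 and 2, and all 5 Ts1Rhr hearts were kept as 1 group by genotype. Nothing in the labels ties a heart to a litter, so p-values measure the spread between these hearts. Replicate numbers only name a heart and pair nothing.

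The 4 proteins act on nucleosomes in different ways. HMGN1 is a small nucleosome-binding protein that competes with linker histone H1 and loosens chromatin. BRWD1 is a large protein with WD repeats and bromodomains that reads acetylated histones, and its relative PHIP is a substrate receptor of the CUL4-DDB1 ubiquitin ligase. CHAF1B is a subunit of CAF-1, the chaperone complex that places new histones H3 and H4 on freshly copied DNA, so dividing cells need it. MORC3 is an ATPase with a zinc finger that reads methylated histone H3, and it gathers at PML nuclear bodies and takes part in silencing. In the forming heart, where cardiomyocytes still divide, each round of replication calls on CAF-1.

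The genes lie in pairs. On GRCm38.p6, Morc3 (ENSMUSG00000039456) spans chr16:93832121-93876077 and Chaf1b (ENSMUSG00000022945) chr16:93883900-93906115, both on the plus strand and 7.82 kb apart. Brwd1 (ENSMUSG00000022914) spans chr16:95992089-96082703 and Hmgn1 (ENSMUSG00000040681) chr16:96121588-96127725, both on the minus strand and 38.9 kb apart. Because the data bear on 4 genes whose levels stand higher together, their promoters are shown, as the 250 bases before the start given for each gene in the RefSeq table, 5′ to 3′ on the gene's own strand. For Brwd1 that start lies inside the outer end of the gene. Capitals mark exact matches, on either strand, to the motifs searched: the GC box (GGGCGG), the CCAAT box (CCAAT), an ETS site (CCGGAAG) and the NRF1 core (GCATGCGC).
Hmgn1, chr16:96127726-96127975, minus strand: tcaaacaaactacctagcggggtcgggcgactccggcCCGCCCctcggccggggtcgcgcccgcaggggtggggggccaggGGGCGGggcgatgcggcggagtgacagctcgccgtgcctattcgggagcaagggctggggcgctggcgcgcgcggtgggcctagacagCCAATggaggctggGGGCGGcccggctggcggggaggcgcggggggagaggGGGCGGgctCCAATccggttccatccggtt
Brwd1, chr16:96082429-96082678, minus strand: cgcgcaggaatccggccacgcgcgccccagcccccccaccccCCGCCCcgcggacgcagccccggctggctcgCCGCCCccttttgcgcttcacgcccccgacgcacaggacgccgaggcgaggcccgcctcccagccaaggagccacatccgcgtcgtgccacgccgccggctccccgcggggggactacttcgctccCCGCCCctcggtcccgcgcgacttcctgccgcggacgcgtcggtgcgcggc
Chaf1b, chr16:93883651-93883900, plus strand: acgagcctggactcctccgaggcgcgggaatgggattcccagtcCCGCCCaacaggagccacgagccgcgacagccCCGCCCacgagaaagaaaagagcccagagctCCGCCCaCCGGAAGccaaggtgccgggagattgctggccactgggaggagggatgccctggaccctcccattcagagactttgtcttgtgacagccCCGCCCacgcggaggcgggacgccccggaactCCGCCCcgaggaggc
Morc3, chr16:93831871-93832120, plus strand: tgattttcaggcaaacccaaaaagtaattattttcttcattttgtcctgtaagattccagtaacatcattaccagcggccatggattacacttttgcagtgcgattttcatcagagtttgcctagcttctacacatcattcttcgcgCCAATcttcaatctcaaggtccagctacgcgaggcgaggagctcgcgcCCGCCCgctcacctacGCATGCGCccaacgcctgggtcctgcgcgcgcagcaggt

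All 4 promoters held a GC box in the 300 bases searched (250 before and 50 after the start), with 5 matches in Hmgn1, 3 in Brwd1, 5 in Chaf1b and 1 in Morc3. One of the 5 in Hmgn1 lies after the start, outside the sequence shown. The GC box was present in 35.9% of the 32544 mouse promoters in the RefSeq table. The CCAAT box, present in 37.4% of promoters, was matched 2 times in Hmgn1 and 1 time in Morc3. The ETS letters were matched in Chaf1b only (8.91% of promoters) and the NRF1 core in Morc3 only (2.73% of promoters). The other motifs searched had no match in any of the 4 windows: TATAAA (13.6% of promoters), the cell cycle element CHR (TTTGAA, 17.8%), YY1 (AAGATGGC, 2.77%) and 5 spellings of the E2F site (TTTGGCGC, TTTGGCGG, TTTCCCGC, TTTCGCGC and TTTCCCGG, together 3.61%). CG pairs numbered 37 in Hmgn1, 52 in Brwd1, 30 in Chaf1b and 20 in Morc3, against a median of 7.

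The libraries held between 6.60 and 19.6 M reads, and mitochondrially encoded transcripts took between 4.85% and 19.5% of them. The share was over 10% in 7 libraries: replicate 5 of Dp3Tyb and of its WT littermates, replicates 1 and 2 of Ts1Rhr, and replicates 1, 2 and 4 of the Ts1Rhr WT littermates. Cardiomyocyte markers were high throughout, with sums over 9 genes between 301314 and 515399 normalised counts, and erythroid markers were also present in every library. In bulk tissue, fewer cells of a type and less RNA per cell cannot be told apart.

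Expression is given as a normalised read count, the reads of a gene divided by a size factor of its library. The reads behind a single value numbered from 1357 to 10376 for Hmgn1, 533 to 3482 for Brwd1, 285 to 1384 for Morc3 and 192 to 862 for Chaf1b. Counting error was therefore at most 2.71% for Hmgn1 and 7.22% for Chaf1b, and it covers counting only. The coefficient of variation within groups was larger in the least even group of each gene, up to 11.3% for Hmgn1 and 12.4% for Chaf1b. Brwd1 varied least, between 5.46% and 6.38%.

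In both strains the 4 genes stood at 1.32 to 1.49 times the level of WT littermates by the ratio of group means. In 7 of the 8 comparisons of a gene with its WT littermates, every mutant heart lay above every WT heart. All 8 of the 95% intervals of the fold excluded 1 and held 1.5. The background is small: mutant hearts lay wholly above WT hearts for 0.501% of 14763 genes tested in Dp3Tyb and 0.619% of 14867 genes in Ts1Rhr.

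Hmgn1, the nucleosome-binding protein gene, was measured at 5037, 4766, 5013, 4667 and 3984 normalised counts in the WT littermates of Dp3Tyb. In the 5 Dp3Tyb hearts it stood at 7658, 7109.8, 6972, 7509.9 and 5656. The groups did not overlap, and in both groups replicate 5 was lowest. In the Ts1Rhr cohort the WT hearts held 5138, 4893, 4899, 4276 and 4404 and the Ts1Rhr hearts 7052, 6307, 6835, 7386 and 7115. Here too no value overlapped, with a gap of 1169 between the lowest Ts1Rhr heart and the highest WT heart. Group means were 6981 ± 792 against 4693 ± 427 in the Dp3Tyb cohort and 6939 ± 404 against 4722 ± 365 in the Ts1Rhr cohort (SD, n = 5 each).

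On the log2 scale Hmgn1 was 0.57 ± 0.097 (SE) higher in Dp3Tyb, with a limma adjusted p of 0.123, and 0.56 ± 0.070 higher in Ts1Rhr, with a limma adjusted p of 0.0193. The gene therefore passed the threshold of 0.05 over all genes in Ts1Rhr and not in Dp3Tyb, and 6 of 10 fits with a single library removed lost the call in Ts1Rhr. The fitted fold was 1.48 (95% interval 1.28 to 1.72) in Dp3Tyb and 1.47 (1.32 to 1.63) in Ts1Rhr.

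Brwd1, the bromodomain gene, was measured at 1683, 1801, 1715, 1799.8 and 1565 normalised counts in the WT littermates of Dp3Tyb. The Dp3Tyb hearts held 2439, 2434, 2226, 2520.2 and 2172. All 5 mutant hearts were above all 5 WT hearts, by at least 371. In the Ts1Rhr cohort the values were 1438, 1643, 1613, 1491 and 1544 in WT hearts and 2162, 1950.3, 2098, 2235 and 2234 in Ts1Rhr hearts, again without overlap. Means were 2358 ± 150.4 against 1713 ± 97.5 and 2136 ± 118 against 1546 ± 84.4 (SD, n = 5 each). Brwd1 rose in both strains, by 0.46 ± 0.066 on the log2 scale in Dp3Tyb (limma adjusted p = 0.0416) and by 0.47 ± 0.062 in Ts1Rhr (limma adjusted p = 0.0238). By this test it was the only gene of the 4 called in both. The call in Dp3Tyb was lost with no filter on low values, with TMM factors or with scaling to nuclear-encoded reads (limma adjusted p of 0.0895, 0.0847 and 0.337), and the one in Ts1Rhr with nuclear-encoded scaling (0.0673). When single libraries were removed, 8 of 10 fits lost it in each strain. The fitted fold was 1.38 in both strains, with intervals of 1.24 to 1.52 and 1.26 to 1.52.

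Chaf1b, the CAF-1 subunit gene, was the lowest of the 4 in normalised counts. The WT littermates of Dp3Tyb held 415, 450.0, 464, 458 and 564, and the Dp3Tyb hearts 657, 609.6, 658, 624 and 817. The groups did not overlap, and replicate 5 was highest in both. In the Ts1Rhr cohort WT hearts held 534, 537, 493, 614 and 438 and Ts1Rhr hearts 727, 786, 711, 642 and 598. This was the 1 comparison with overlap, since Ts1Rhr replicate 5 (598) lay under WT replicate 4 (614). Means were 673 ± 83.0 against 470.1 ± 55.6 and 693 ± 73.8 against 523 ± 64.8 (SD, n = 5 each). The log2 fold changes, 0.52 ± 0.10 in Dp3Tyb and 0.41 ± 0.10 in Ts1Rhr, did not pass the threshold, with limma adjusted p of 0.317 and 0.688. The fitted folds were 1.43 (1.22 to 1.67) and 1.33 (1.14 to 1.54).

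Morc3, the ATPase gene, was measured at 751, 699.7, 679, 674 and 837 normalised counts in the WT littermates of Dp3Tyb and at 1047, 904, 992, 1002 and 1120.3 in Dp3Tyb hearts. In the Ts1Rhr cohort the values were 709, 739, 705, 819 and 659.8 in WT hearts and 1089.8, 1159, 885, 1035 and 999 in Ts1Rhr hearts. Neither cohort overlapped, and the gaps were close to each other, at 67.0 and 66.2. Means were 1013 ± 79.3 against 728 ± 67.8 and 1034 ± 102 against 726 ± 59.0 (SD, n = 5 each). The log2 fold changes of 0.48 ± 0.081 and 0.51 ± 0.083 did not pass the threshold, with limma adjusted p of 0.123 in Dp3Tyb and 0.0841 in Ts1Rhr. The fitted folds were 1.39 (1.23 to 1.57) and 1.42 (1.25 to 1.61).

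**Figure D1:**
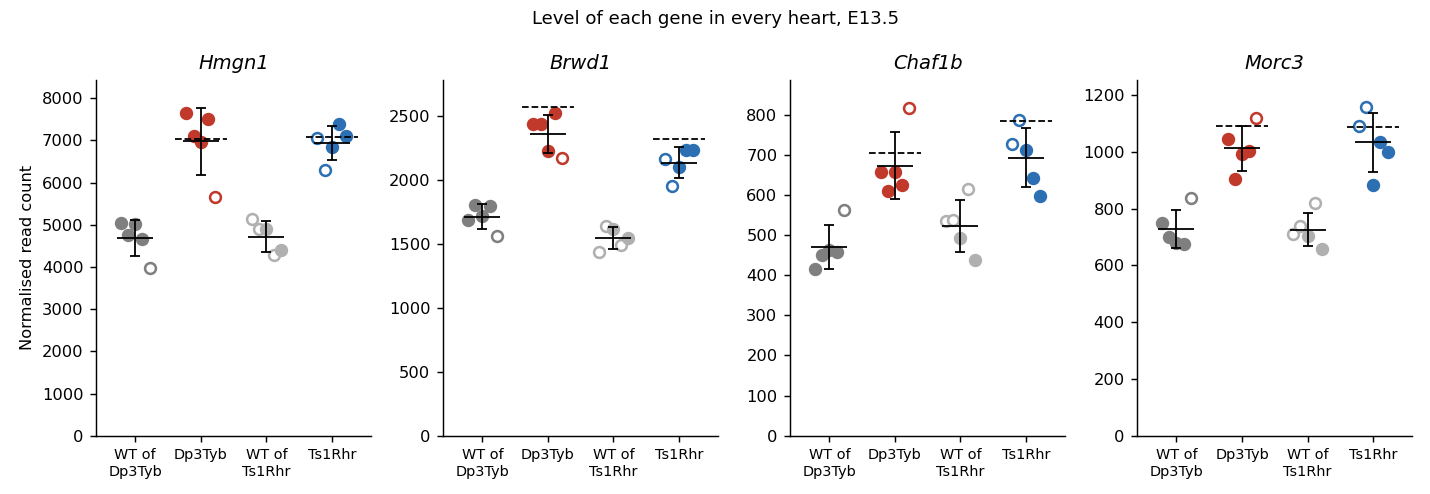
Normalised read count (vertical axis, from 0) of each gene in each of the 20 hearts, by group; bars show the mean and SD of 5 hearts, dashed lines 1.5 times the mean of the WT littermates, and open symbols libraries with over 10% mitochondrially encoded reads. Mutant and WT hearts separate in every panel and cohort except Chaf1b in the Ts1Rhr cohort, where 598 lies under 614.

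By this test 1 of the 4 genes was called in Dp3Tyb and 2 in Ts1Rhr, where 0.0474% and 0.0269% of all genes were called higher. DESeq2 on the recovered reads called 4 of 4 in Dp3Tyb, against 0.154% of genes, and 3 of 4 in Ts1Rhr, all but Chaf1b, against 0.0959%. The quasi-likelihood test of edgeR called 1 and 2 of the 4, against 0.0542% and 0.0269%. Ranked by the limma p among all genes, the 4 stood at places 8 to 17 in Dp3Tyb and 2 to 33 in Ts1Rhr. In Dp3Tyb, a fit with the mitochondrial share as a term called all 4, and so did a fit of the 8 libraries at or under 10%. In Ts1Rhr the first of these called all 4 and the second, with 3 hearts against 2, called 0 of 4. Over all genes the 2 fits called 54 and 30 in Dp3Tyb and 25 and 0 in Ts1Rhr.

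Set against 1.5, the estimates lay below it in all 8 comparisons, by 0.02 to 0.18 on the log2 scale. None of the 8 exact permutation tests (2-sided, over all divisions of 10 hearts into 5 and 5, smallest possible p = 0.00794, unadjusted) passed 0.05. The p-values for Hmgn1 were 0.849 in Dp3Tyb and 0.651 in Ts1Rhr. For Chaf1b they were 0.500 and 0.119, and for Morc3 0.190 and 0.389. Brwd1 came nearest to a difference from 1.5, with exact p of 0.0714 and 0.0556. Its intervals ended just above 1.5.

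Heart by heart, 10 of the 40 values of a gene in a mutant heart reached 1.5 times the mean of the WT littermates. Hmgn1 reached it in 3 Dp3Tyb and 2 Ts1Rhr hearts, Morc3 in 1 and 2, Chaf1b in 1 and 1, and Brwd1 in 0 of 5 and 0 of 5. The lowest single value was Chaf1b at 1.14 in Ts1Rhr replicate 5 and the highest Chaf1b at 1.74 in Dp3Tyb replicate 5. WT hearts themselves ranged from 0.837 to 1.17 of their group mean for Chaf1b in the Ts1Rhr cohort and from 0.930 to 1.06 for Brwd1 there.

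**Figure D2:**
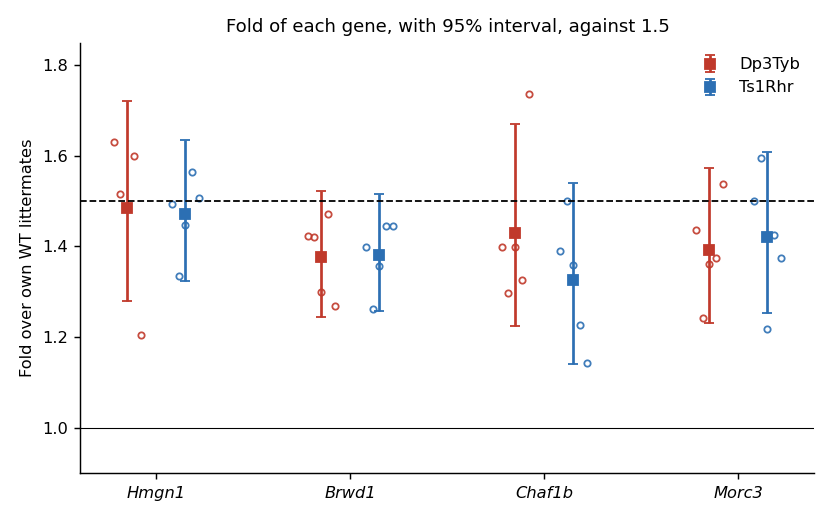
Fold over own WT littermates (vertical axis) for each gene in Dp3Tyb and Ts1Rhr; squares and bars are the limma estimate with its 95% interval, small circles the 5 single mutant hearts over the WT mean, and the dashed line is 1.5. Estimates run from 1.33 to 1.48, and no Brwd1 heart reaches 1.5.

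The strains did not differ detectably in the size of these changes. The Dp3Tyb minus Ts1Rhr difference of log2 fold changes, from the interaction term of a fit over all 20 libraries, was 0.013 (95% interval -0.23 to 0.26) for Hmgn1 and -0.0053 (-0.18 to 0.17) for Brwd1. For Chaf1b it was 0.11 (-0.19 to 0.41) and for Morc3 -0.030 (-0.27 to 0.21). The limma adjusted p was 1.0 for each of the 4, and 0.013% of the 15348 genes tested were called. The intervals leave room for differences of up to 0.41 on this scale, so equal changes were not shown.

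In order of level across the 4 groups, both WT groups stood below both mutant groups for every gene. The WT littermates of Dp3Tyb differed from those of Ts1Rhr by -0.010 on the log2 scale for Hmgn1 and 0.0026 for Morc3, and Dp3Tyb from Ts1Rhr by 0.0027 and -0.027. Chaf1b was 0.15 ± 0.10 lower in the WT littermates of Dp3Tyb than in those of Ts1Rhr (limma adjusted p = 0.833). Brwd1 was 0.15 ± 0.060 higher in the WT littermates of Dp3Tyb than in those of Ts1Rhr (limma adjusted p = 0.833), and 0.14 ± 0.060 higher in Dp3Tyb than in Ts1Rhr (limma adjusted p = 1.0). These neighbours in the order did not differ past the threshold over all genes. Per kilobase of transcript, Hmgn1 was the most abundant, at 2579 ± 235 normalised counts per kb in the WT littermates of Dp3Tyb, against 242 ± 28.6 for Chaf1b, 174 ± 16.2 for Morc3 and 169 ± 9.62 for Brwd1 (SD, n = 5).

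Each gene was then set against a 2-copy relative or partner in the same heart, a ratio that library scaling does not affect. All 8 ratios were higher in mutant hearts, without overlap between groups, and each reached the smallest p the exact permutation test can give (0.00794, 2-sided, unadjusted over 8 tests). Ratios of other gene pairs were not computed, so this count has no background beside it. The ratio of Chaf1b to Chaf1a, the large subunit of CAF-1, was 0.684 ± 0.0610 in WT and 1.01 ± 0.0959 in Dp3Tyb hearts, and 0.688 ± 0.0868 in WT and 0.959 ± 0.0551 in Ts1Rhr hearts. Chaf1a itself stood at 687 ± 29.9 and 662 ± 30.6 in the Dp3Tyb cohort (WT and Dp3Tyb) and at 765 ± 83.5 and 722 ± 59.4 in the Ts1Rhr cohort (WT and Ts1Rhr). In the Ts1Rhr cohort Chaf1b, which overlapped as a level, did not overlap as a ratio: the lowest Ts1Rhr heart was at 0.866 and the highest WT heart at 0.828.

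Hmgn1 was measured against Hmgn2, the closest of its family. The ratio was 0.666 ± 0.0669 in WT and 1.06 ± 0.108 in Dp3Tyb, and 0.669 ± 0.0375 in WT and 1.07 ± 0.0602 in Ts1Rhr, a fold of 1.59 and 1.61. Because Hmgn2 stood lower in mutant hearts (log2 fold changes of -0.10 and -0.13), these folds exceed those of Hmgn1 itself. Brwd1 over Phip was 0.849 ± 0.104 in WT and 1.27 ± 0.161 in Dp3Tyb, and 0.740 ± 0.0758 in WT and 1.28 ± 0.177 in Ts1Rhr. The ratio of Morc3 to Morc2a was 0.508 ± 0.0157 in WT against 0.711 ± 0.0336 in Dp3Tyb, and 0.496 ± 0.0285 in WT against 0.733 ± 0.0460 in Ts1Rhr (SD, n = 5 each).

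**Figure D3:**
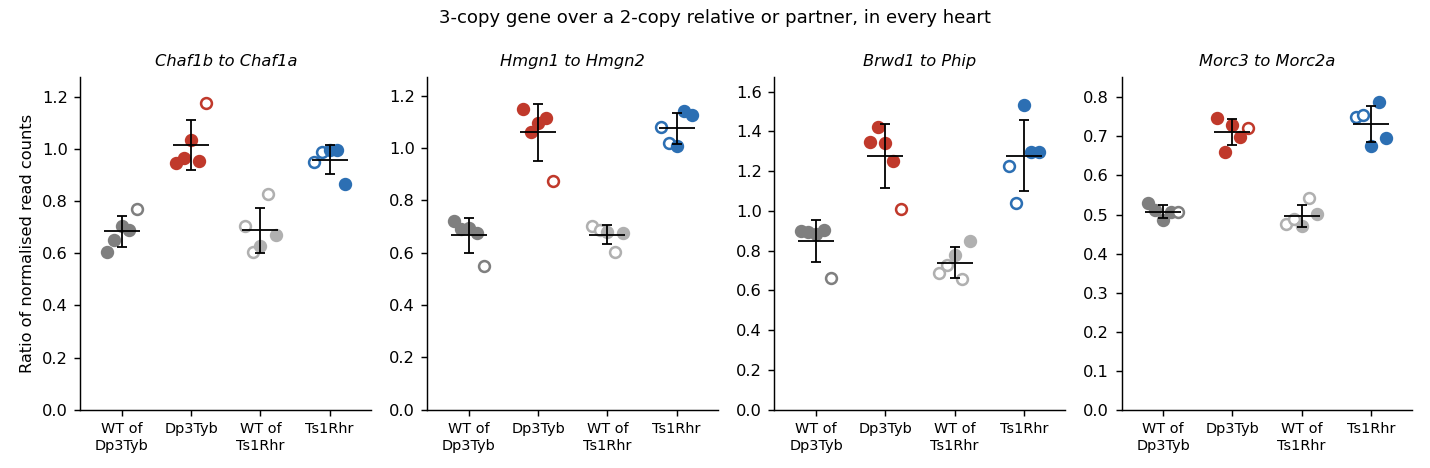
Ratio of normalised read counts (vertical axis, from 0) of each 3-copy gene to a 2-copy partner or relative in each of 20 hearts, by group, with mean and SD of 5 hearts; open symbols mark libraries with over 10% mitochondrially encoded reads. In each panel the mutant hearts of a cohort lie above all of its WT hearts, as for Chaf1b to Chaf1a with 0.866 against 0.828 in the Ts1Rhr cohort.

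The relatives and partners in 2 copies are described by counts and medians, beside a median log2 fold change over all genes of -0.0027 in Dp3Tyb and -0.0016 in Ts1Rhr. For counts of unadjusted limma p under 0.05, here and in the lists below, the background was 413 of 14763 genes in Dp3Tyb and 821 of 14867 in Ts1Rhr. Of the HMGN family, Hmgn2, Hmgn3 and Hmgn5 were tested and had log2 fold changes of -0.10, -0.071 and -0.17 in Dp3Tyb and -0.13, -0.26 and -0.45 in Ts1Rhr. None was called by limma or edgeR, nor by DESeq2, which gave no adjusted p for Hmgn5 in Dp3Tyb, and 1 of the 6 values had an unadjusted limma p under 0.05 (Hmgn2 in Ts1Rhr, 0.0420). Hmgn5 varied widely, with 953 ± 855 normalised counts in the WT littermates of Dp3Tyb. Per kilobase, Hmgn1 made up 27.8% ± 2.76 of the summed HMGN level in the WT littermates of Dp3Tyb and 38.0% ± 3.09 in Dp3Tyb, and 27.6% ± 1.48 and 38.2% ± 1.60 in the Ts1Rhr cohort (SD, n = 5 each). Hmgn2 held most of the rest.

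Among the relatives of Brwd1 and the subunits of the CUL4-DDB1 ligase, 6 genes were tested in each strain and none was called by any of the 3 tools. An unadjusted limma p under 0.05 was found for 0 in Dp3Tyb, against 413 of all 14763 genes, and 2 in Ts1Rhr, against 821 of 14867. The log2 fold changes of Phip were -0.13 ± 0.090 in Dp3Tyb and -0.32 ± 0.091 in Ts1Rhr (limma unadjusted p = 0.00442, adjusted p = 0.795 over all genes). Brwd3 stood at -0.11 ± 0.13 and -0.23 ± 0.10 (unadjusted p = 0.0436 in Ts1Rhr). The ligase genes Ddb1, Cul4a, Cul4b and Rbx1 lay between -0.077 and 0.13 in both strains. Because Phip stood lower in Ts1Rhr, the Brwd1 to Phip ratio, at a fold of 1.72 in that strain, exceeds the fold of Brwd1 itself.

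Of the CAF-1 and H3-H4 chaperone genes in 2 copies, 14 were tested and none was called by limma, DESeq2 or edgeR in either strain. Their median log2 fold change was -0.052 in Dp3Tyb, with 1 unadjusted limma p under 0.05 (Asf1b, the replication-linked H3-H4 chaperone, at -0.26 ± 0.11, unadjusted p = 0.0393), and -0.059 in Ts1Rhr, with 0 under 0.05. Rbbp4, the third CAF-1 subunit, stood at -0.052 ± 0.15 and 0.030 ± 0.10. The chaperones of the replication-independent route (Hira, Cabin1, Ubn1, Ubn2, Daxx and Atrx) had estimates between -0.17 and 0.11 in the first strain and between -0.34 and 0.043 in the second (Dp3Tyb and Ts1Rhr). The remaining chaperone genes were Asf1a (0.016 and -0.071), Nasp (-0.082 and -0.30), Tonsl (0.011 and 0.028), Mms22l (-0.0019 and -0.036) and Mcm2 (-0.070 and -0.037), in Dp3Tyb and Ts1Rhr.

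Of the MORC and PML body genes, 7 in 2 copies were tested and none was called by any tool, with 0 unadjusted limma p under 0.05 in either strain. Morc2a stood at -0.0096 ± 0.071 and -0.055 ± 0.066 and Morc4 at -0.13 ± 0.14 and -0.20 ± 0.12. Pml, which builds the bodies, stood at 0.053 ± 0.080 and -0.014 ± 0.071. Sp100 (-0.33 and -0.075) and the modifiers Sumo2 (-0.0035 and -0.15) and Sumo3 (0.022 and -0.038) gave no call. Morc1 and Morc2b were too low to test, with at most 6.87 and 2.93 normalised counts in any heart.

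The wider chromatin and replication lists hold no gene called by limma in either strain. The replication genes, which work in the same phase of the cell cycle as CAF-1, had negative estimates for 18 of 18 genes in each strain, with medians of -0.15 in Dp3Tyb and -0.090 in Ts1Rhr, where 48.9% and 49.6% of all genes had positive ones. An unadjusted limma p under 0.05 was found for 5 of them in Dp3Tyb, against 413 of all 14763 genes, and 4 in Ts1Rhr, against 821 of 14867. DESeq2 and edgeR called none of the 18. The genes with the largest estimates were Rrm2 (-0.21 ± 0.088) and Gins1 (-0.20 ± 0.14) in Dp3Tyb and Prim1 (-0.33 ± 0.095) and Gins1 (-0.29 ± 0.16) in Ts1Rhr. The estimates of Chaf1b were positive in both strains.

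For the counts of unadjusted limma p in this paragraph, 413 of all 14763 genes were under 0.05 in Dp3Tyb and 821 of 14867 in Ts1Rhr. The PRC2 and H3K27 demethylase list had 12 genes tested, 0 called by the 3 tools, and 0 and 2 unadjusted limma p under 0.05. Its largest estimates were Ezh2 (-0.12 ± 0.098) and Kdm6a (-0.086 ± 0.25) in Dp3Tyb and Ezh2 (-0.23 ± 0.080) and Eed (-0.18 ± 0.083) in Ts1Rhr. The BAF remodeller list had 14 genes tested, 0 called by the 3 tools, and 0 and 2 unadjusted limma p under 0.05, with Dpf3 (-0.17 ± 0.15) and Pbrm1 (-0.13 ± 0.090) in Dp3Tyb and Dpf3 (-0.20 ± 0.087) and Smarce1 (-0.19 ± 0.16) in Ts1Rhr. The linker histone and HMG list had 9 genes tested and 0 called by limma or edgeR, with 1 and 2 unadjusted limma p under 0.05. Its largest estimates were Hmgb2 (-0.20 ± 0.27) and Hmga2 (0.17 ± 0.16) in Dp3Tyb and Hmgb2 (-0.37 ± 0.18) and Hmgb1 (-0.29 ± 0.20) in Ts1Rhr. In Ts1Rhr, DESeq2 called the linker histone gene H1f0 lower (-0.25, DESeq2 adjusted p = 0.0220), a gene named after its value was seen. Negative estimates were not particular to the replication list. They numbered 10 and 10 of 12 for PRC2, 12 and 12 of 14 for BAF and 7 and 8 of 9 for linker histone and HMG genes (Dp3Tyb and Ts1Rhr). Among the earlier lists they numbered 3 and 3 of 3 for HMGN, 4 and 3 of 6 for BRWD and ligase, 11 and 10 of 14 for chaperone and 5 and 7 of 7 for MORC and PML genes.

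Along chromosome 16 the 4 genes stood among neighbours that are also in 3 copies. The other 3-copy genes tested had a median log2 fold change of 0.53 (quartiles 0.46 and 0.67) in Dp3Tyb over 24 genes and 0.52 (0.38 and 0.59) in Ts1Rhr over 17 genes. The median of the 4 chromatin genes was 0.50 and 0.49. By size of the estimate they held places 11 (Hmgn1), 15 (Chaf1b), 20 (Morc3) and 21 (Brwd1) of 28 in Dp3Tyb. In Ts1Rhr they held places 6, 15, 11 and 14 of 21. Mutant hearts lay wholly above WT hearts for 12 of the 24 other genes in Dp3Tyb and 9 of the 17 in Ts1Rhr, against 4 and 3 of the 4 chromatin genes.

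The nearest tested neighbours gave similar sizes. Psmg1, a proteasome assembly factor gene 1.13 kb from Brwd1, stood at 0.51 ± 0.12 in Dp3Tyb and 0.39 ± 0.12 in Ts1Rhr. Get1, 17.7 kb beyond Hmgn1, stood at 0.64 ± 0.18 and 0.69 ± 0.14, and Dop1b, 21.5 kb before Morc3, at 0.41 ± 0.064 and 0.53 ± 0.11. The nearest tested gene beyond Chaf1b was Sim2, 179 kb away, a low gene with log2 fold changes of 2.42 ± 1.06 and -0.99 ± 0.78, neither called.

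**Figure D4:**
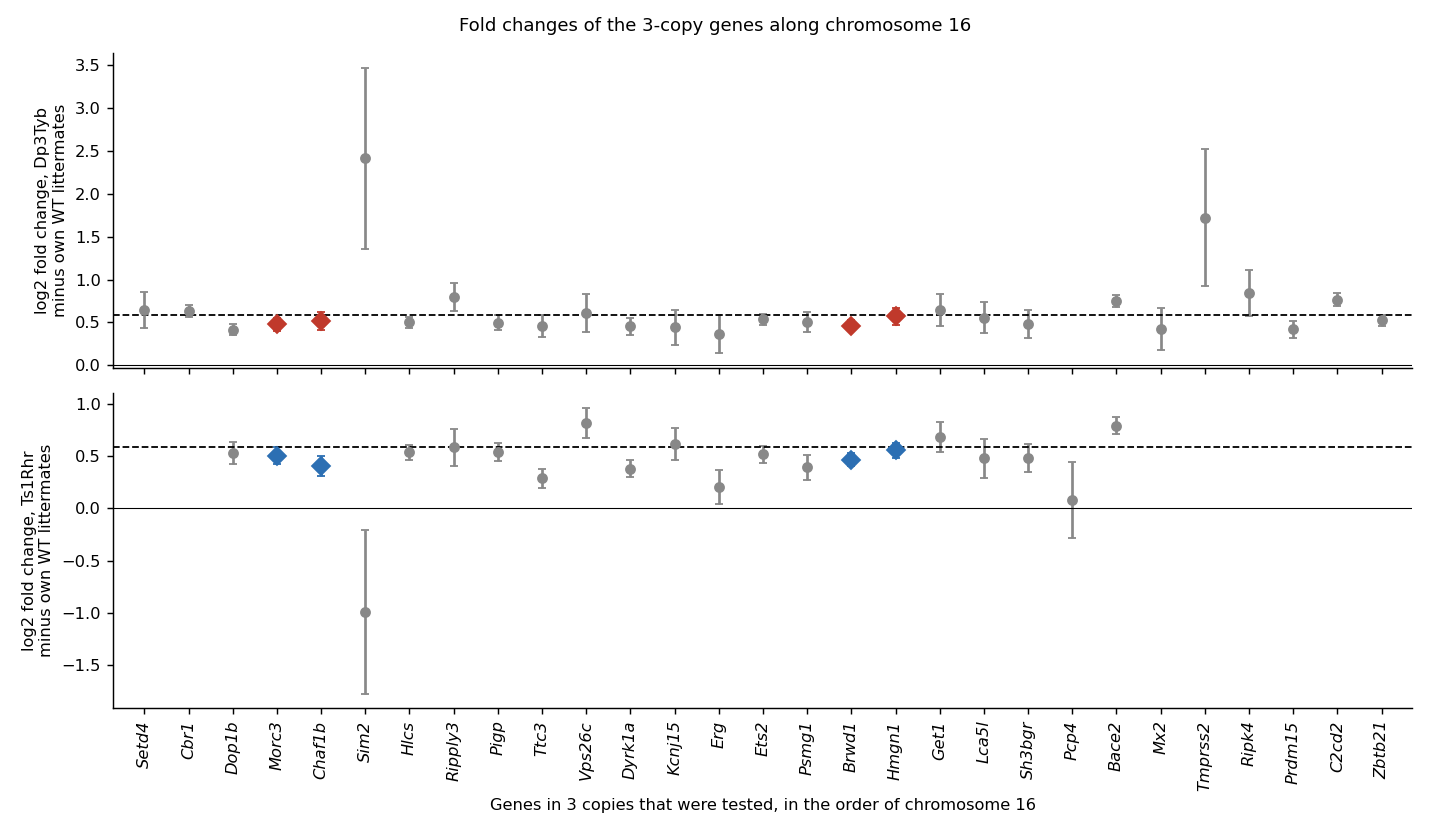
Log2 fold change against own WT littermates (vertical axis, with SE) for every 3-copy gene tested, in the order of chromosome 16, in Dp3Tyb above and Ts1Rhr below; diamonds are Morc3, Chaf1b, Brwd1 and Hmgn1 and the dashed line is 1.5-fold. The diamonds lie between 0.41 and 0.57, and the widest bars belong to low genes such as Sim2.

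Within groups the 4 genes did not vary alike. Taking in each group the heart with the highest mitochondrial share (13.1% to 19.5%), a choice made after the values were seen, Hmgn1 was the lowest of its group in 4 of 4 groups and Brwd1 in 3 of 4. In the same hearts Chaf1b and Morc3 were the highest of their group in 4 of 4. Brwd1 and Hmgn1 thus went one way in these hearts and Morc3 and Chaf1b the other. The share of all genes that went either way is not given here, and a part of position on the chromosome was not tested. In Dp3Tyb replicate 5, at 15.5%, Hmgn1 stood at 5656 where the other 4 hearts ranged from 6972 to 7658, and Chaf1b at 817 where the others ranged from 609.6 to 658. Split at 10% instead, the hearts over it had the lower mean of Hmgn1 in 3 of 4 groups and the higher one in the WT littermates of Ts1Rhr (4769 in 3 hearts against 4652 in 2), while Brwd1 was lower and Chaf1b and Morc3 were higher in 4 of 4. Of the hearts with the highest share, those with 19.5%, 17.2% and 15.5% also had the fewest reads of their group (6.60, 9.50 and 12.5 M), and Ts1Rhr replicate 2, with 13.1%, had the second most (17.0 M). The part of share and depth in these values was not tested.

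Leaving out the libraries over 10% removed replicate 5 of both groups of the Dp3Tyb cohort and narrowed the errors there. Hmgn1 then stood at 0.59 ± 0.045, Brwd1 at 0.46 ± 0.046, Chaf1b at 0.51 ± 0.053 and Morc3 at 0.49 ± 0.054 on the log2 scale (SE), with 4 hearts in each group. In this fit limma called all 4, among 30 genes called in all. In the Ts1Rhr cohort 3 hearts were left against 2, and the estimates were 0.61 ± 0.088, 0.47 ± 0.082, 0.48 ± 0.11 and 0.51 ± 0.098 in the same order, with limma adjusted p from 0.188 to 0.986. With the share as a term in the fit of all 10 Ts1Rhr-cohort libraries, Chaf1b stood at 0.48 ± 0.062 in place of 0.41 ± 0.10, with a limma adjusted p of 0.00207. The 2 Ts1Rhr hearts whose labels name heart defects are the 2 with the high share, so defect and share cannot be told apart there. Their means were 6679 for Hmgn1, 2056 for Brwd1, 756 for Chaf1b and 1124 for Morc3, against 7112, 2189, 650.3 and 973 in the other 3.

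**Figure D5:**
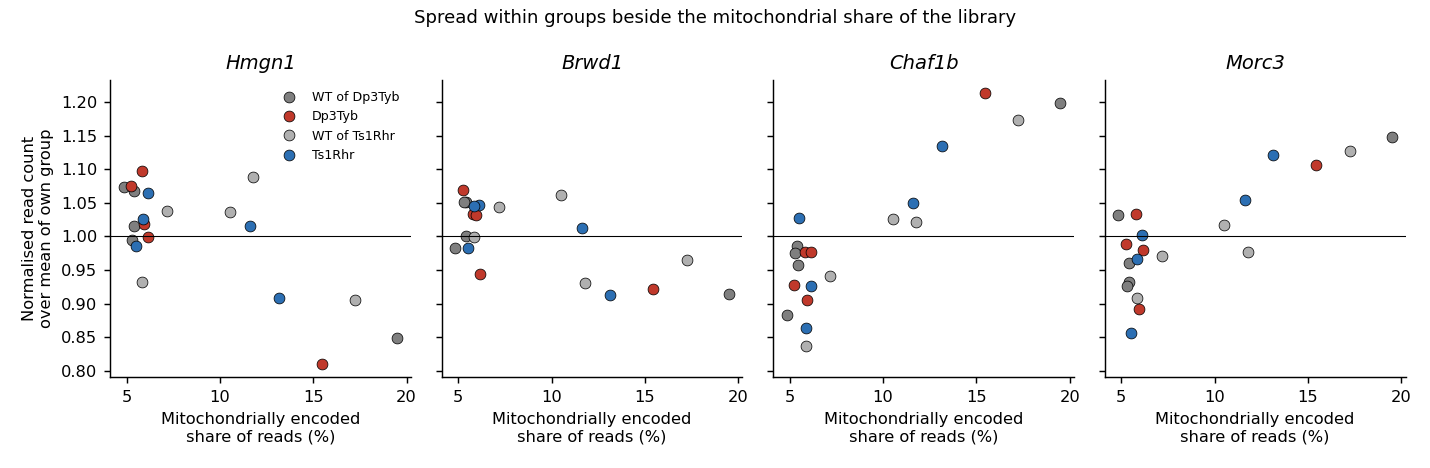
Normalised read count of each gene divided by the mean of its own group (vertical axis) against the mitochondrially encoded share of reads of the library in percent (horizontal axis), for 20 hearts in 4 groups. Toward 19.5% the points of Hmgn1 and Brwd1 lie below 1 and those of Chaf1b and Morc3 above 1.

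The genes most like each of the 4 across hearts were found by the correlation of log2 values centred on each group, over 20 libraries and 10889 genes. They were Pafah1b2 (Pearson r = 0.960), Flvcr1 (0.944) and Vkorc1l1 (0.929) for Hmgn1, and Xpo4 (0.881), Ap4e1 (0.864) and Ddx19b (0.855) for Brwd1. For Chaf1b they were Hand2 (0.960), Phc1 (0.957) and Cdkn1c (0.955), and for Morc3 Chordc1 (0.942), Ppp2r5e (0.941) and Nap1l1 (0.937). None of the 12 is a 3-copy gene. The 12 were picked for likeness over these same hearts, so their places in the high-share heart follow largely from that choice. The share of all genes at such places is not given here. All 6 genes most like Chaf1b and Morc3 were highest of their group in the high-share heart of 4 of 4 groups, and the 6 most like Hmgn1 and Brwd1 were lowest there in 3 or 4 groups. The libraries share that difference and depth, and these correlations are a description.

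Markers of other cell types were compared in the same way, and limma, DESeq2 and edgeR called 0 of the 42 tested in either strain. An unadjusted limma p under 0.05 was found for 2 in Dp3Tyb, against 413 of all 14763 genes, and 6 in Ts1Rhr, against 821 of 14867. Over 7 erythroid markers the median log2 fold change was 0.13 in Dp3Tyb, with 6 positive, and 0.32 in Ts1Rhr, with 7 positive. Over 6 macrophage markers it was 0.24 and 0.28, with 6 positive in each, and 1 and 3 of them had an unadjusted limma p under 0.05. The 9 cardiomyocyte markers had medians of -0.084 and -0.018, the 6 of endothelium 0.036 and 0.093, and the 6 of epicardium 0.033 and 0.074. Of 5 liver markers 1 was tested, at 0.32 and -0.16. Lung and foregut markers went opposite ways, with medians over 7 tested genes of 1.93 in Dp3Tyb, where 7 were positive, and -1.76 in Ts1Rhr, where 0 were. Their sum over 8 genes ranged from 99.8 to 895 normalised counts in the Dp3Tyb cohort and from 145 to 649 in the Ts1Rhr cohort, far under the cardiomyocyte sums. The part of these in the values of the 4 genes was not tested.

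Hmgn1 alone of the 4 resembles transcripts of other genes, over stretches of 157 to 292 bases where its own transcript has 1820. There were 9 such genes in the GENCODE annotation, at 90% identity or more over at least 150 bases. Of these 8 were in the table, and they held together at most 0.543% of the sum of Hmgn1 and themselves in any heart. Counting them in left the fold at 1.49 in Dp3Tyb and 1.47 in Ts1Rhr. Brwd1 overlaps the antisense gene Gm15342, which was at 0 reads in every library.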

How the data were processed

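Snap-frozen hearts gave total RNA, from which mRNA was sequenced (Illumina HiSeq). The submitters' processing notes name Trimmomatic 0.36, STAR 2.5.2a, RSEM 1.2.31, DESeq2 and the build GRCm38, and the annotation is not given in the sources used here. The authors deposited a signal per gene and library, reads divided by size factors computed over all 20 libraries, and dividing by the smallest step of each library gave whole reads for 100% of them (tolerance 1e-06). RSEM shares out reads that match several genes.

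Groups came from the genotype labels. The test was limma 3.58.1 (R 4.3.3) on log2(value + 1) with a trended, robust prior, 2-sided, on the 10 libraries of a strain and its WT littermates, or on all 20 for the difference between strains. Genes were tested where 5 or more libraries reached 10, and p-values were adjusted by Benjamini-Hochberg over all genes, with a threshold of 0.05. A fold is on that log2 scale and understates low genes. Exact permutation tests were used for single values. DESeq2 1.42.0 and edgeR 4.0.16 were run on the recovered reads. The limma step was tested on simulated data. Symbols and transcript lengths came from GENCODE vM39, positions and promoters from RefSeq. Named genes were the 4, tested relatives and partners, the 2 largest estimates of each wider list, the nearest 3-copy neighbours and the 3 most alike. The members and lists were chosen with earlier results of these data known. Results for 2 listed genes are not reported here.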

Additional observations from a re-analysis of the deposited data

Results flagged for a closer look

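A sample was marked where its gap to the nearest other heart of its group, divided by the range of the group, passed Dixon's limit for 5 values. Levels and ratios of the 4 genes gave 32 sets of 5, and 4 of them were marked, where chance marks about 1 in 20. Chaf1b in Dp3Tyb replicate 5 was 817 normalised counts, and the next heart was at 658. The Hmgn1 to Hmgn2 ratio was 0.549 in WT replicate 5 of the Dp3Tyb cohort, next to 0.677, and 0.604 in WT replicate 4 of the Ts1Rhr cohort, next to 0.673. The Brwd1 to Phip ratio was 0.664 in WT replicate 5 of the Dp3Tyb cohort, next to 0.882. All 4 marked values belong to the heart with the highest mitochondrial share of its group. No difference between the strains passed the threshold.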

How the results depend on the processing

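No paired analysis was possible because the replicate numbers follow accession order and pair no hearts. All 152 alternative values of the 8 log2 fold changes were positive (0.34 to 0.64), so what moved was the call. In Dp3Tyb, calls were gained with DESeq2 (Hmgn1 0.57, Chaf1b 0.53, Morc3 0.49), with all 20 libraries in 1 fit (Hmgn1 0.57, Morc3 0.48), with the mitochondrial share as a term (Hmgn1 0.58, Chaf1b 0.51, Morc3 0.47), without libraries over 10% (Hmgn1 0.59, Chaf1b 0.51, Morc3 0.49) and scaled to nuclear-encoded reads (Chaf1b 0.54, Morc3 0.50). Brwd1 lost its call there with no filter (0.46), TMM factors (0.46) and nuclear-encoded reads (0.48). In Ts1Rhr, calls were gained for Morc3 with nuclear-encoded reads (0.53), DESeq2 (0.51), all 20 libraries (0.51) and the share as a term (0.57), and for Chaf1b with that term (0.48). They were lost without libraries over 10% (Hmgn1 0.61, Brwd1 0.47) and for Brwd1 with nuclear-encoded reads (0.49). Genes called in all numbered 8 in Dp3Tyb, 54 with the share as a term, 30 with DESeq2, 30 without libraries over 10%, 17 with all 20 libraries and 4 with no filter. In Ts1Rhr they numbered 4, and 25, 21, 0 and 11 under the first 4 of these. The cause of these changes was not tested.

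The difference between strains changed sign for Hmgn1 without libraries over 10% (-0.028) and for Brwd1 with the share as a term (0.025). For Chaf1b it went from 0.11 to 0.031 under either of these, and for Morc3 from -0.030 to -0.084 with the share as a term and -0.019 without libraries over 10%. No member was called. The log2 fold over 1.5 changed sign for Hmgn1 in Dp3Tyb with nuclear-encoded reads (0.0082) and without libraries over 10% (0.00093), and in Ts1Rhr without them (0.029). Brwd1 in Dp3Tyb fell below 1.5 past 0.05 without them (-0.13, exact permutation p = 0.0286). The 4 partner ratios in Ts1Rhr, with 3 hearts against 2 and a smallest exact permutation p of 0.1, were 0.55 for Chaf1b to Chaf1a, 0.69 for Hmgn1 to Hmgn2, 0.75 for Brwd1 to Phip and 0.56 for Morc3 to Morc2a on the log2 scale.

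Leaving out 1 library at a time, the log2 fold changes in Dp3Tyb ranged from 0.51 to 0.64 for Hmgn1 (called without Dp3Tyb replicate 5), 0.43 to 0.49 for Brwd1 (call kept only without replicate 5 of either group), 0.44 to 0.58 for Chaf1b and 0.44 to 0.53 for Morc3 (both called without WT replicate 5). In Ts1Rhr they ranged from 0.52 to 0.59 for Hmgn1 (call lost without Ts1Rhr replicates 1, 4 or 5 or WT replicates 2, 3 or 4), 0.44 to 0.50 for Brwd1 (call kept only without Ts1Rhr replicate 2 or WT replicate 5), 0.34 to 0.47 for Chaf1b and 0.46 to 0.56 for Morc3 (called without Ts1Rhr replicate 3). The strain difference ranged from -0.045 to 0.087 for Hmgn1, -0.038 to 0.024 for Brwd1, 0.038 to 0.18 for Chaf1b and -0.084 to 0.022 for Morc3. The log2 fold over 1.5 ranged from -0.073 to 0.059 in Dp3Tyb and -0.063 to 0.0058 in Ts1Rhr for Hmgn1, -0.16 to -0.095 and -0.14 to -0.086 for Brwd1, -0.14 to -0.00047 and -0.24 to -0.12 for Chaf1b, and -0.15 to -0.057 and -0.12 to -0.024 for Morc3. Brwd1 passed 0.05 without WT replicate 5 in Dp3Tyb (exact permutation p = 0.0159) and without Ts1Rhr replicate 4, Ts1Rhr replicate 5 or WT replicate 1 (0.0317 to 0.0476), and Chaf1b without WT replicate 5 in Ts1Rhr (0.0397). All 80 such ratios kept their direction and call. Chaf1b, with 192 to 862 reads a heart, had the largest counting error of the 4.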
